A study of Mus musculus with 8 samples.

Results

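The guanylate-binding proteins (GBP) and the immunity-related GTPases (IRG) are enzymes that cells make in quantity when interferon gamma binds its receptor. They bind and hydrolyse GTP, assemble on the membranes around intracellular bacteria and parasites, and help to disrupt those compartments or expose them to inflammasomes. The proteins Irgm1, Irgm2 and Igtp (also called Irgm3) are regulators that hold other family members inactive on the membranes of the cell itself. These genes are best known from macrophages, and T cells also transcribe them.

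The 10 genes described here (Gbp2, Gbp3, Gbp5, Gbp6, Gbp7, Gbp8, Gbp9, Irgm1, Irgm2 and Igtp) were taken by symbol from a list of names. All 10 were among the 22829 genes listed, and all 10 were among the 16982 genes tested, which are those with a mean normalized count of at least 10. The data are RNA seq of CD4+ T cells from spleens of ROR-γt-/- mice, transduced with a lentivirus and differentiated under Th17-inducing conditions. In 4 samples, called WT, the virus carried WT-ROR-γt. In the other 4, called K187R, it carried K187R-ROR-γt, in which the lysine that accepts SUMO is an arginine. Both groups therefore lack the mouse's own ROR-γt and carry a viral one. The comparison asks what loss of this SUMOylation site does to transcription. The age of the mice is not given in the sources used here. The deposited description speaks of WT and mutant mice, 4 of each, whereas the paper describes transduced cells and does not say how many animals they came from, so that p-values measure the spread between these samples, which may be technical. A cell that escaped transduction cannot be told from a transduced one in these data.

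A normalized count is the number of reads on a gene divided by 1 size factor per sample. Reads on genes ranged from 52456804 to 74676721 per sample, and the lowest member value anywhere, for Gbp6, rested on 286 reads, so counting error was small for these 10 genes. It was larger for some list genes with few reads, such as Mx1 and Gbp10 (at least 12 reads in every sample), Gbp11 (at least 22) and Ido1 (at least 4). The 8 samples fell into 3 sets when clustered on 16848 genes that exclude every gene list used here. Set 1 held WT 1, WT 3 and K187R 1, set 2 held WT 2, K187R 2 and K187R 3, and set 3 held WT 4 and K187R 4. Xist read 13564 to 17373 in set 2 and 3.56 to 23.7 in the others, and the sets were not equally divided between the groups, so values within sets are given beside the pooled ones for the 10 genes. Summed markers of T cells read 154839 to 175622 in WT and 162300 to 187144 in K187R. Markers of macrophages and monocytes were also present, all 8 of 8 above 3 reads in every sample. Set 1 had the lowest sums, 21002 to 35799, followed by set 2 with 44026 to 50195 and set 3 with 62063 to 65001. Macrophages transcribe GBP and IRG genes too, and the part of these markers in the results below was not tested. In such bulk samples fewer cells of a type and less RNA per cell cannot be told apart.

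Because these genes are known as a set induced through interferon response elements, the sequence just before their starts is shown first. RefSeq promoters (GRCm38.p6, 250 bases before to 50 after each start) were found for 7 of the 10, which are Gbp2, Gbp3, Gbp5, Gbp7, Irgm1, Irgm2 and Igtp. The interferon-stimulated response element (ISRE), searched on both strands as GAAA, any 2 bases and GAAA, was in a promoter of all 7 genes, and in 7 of their 8 promoters, against 3.44% of 32851 promoters. The exception was the second of the 2 promoters listed for Gbp3. The STAT element, searched as TTCNNNGAA, was in 4 of the 7, which are Gbp5, Gbp7, Irgm2 and Igtp, against 8.3% of promoters. AGGTCA, the short element that ROR factors bind, was in 2 of the 7, Irgm2 and Igtp, against 16.3%. Such a match is a description of the letters, not a site shown to be used. The stretches that hold the ISRE are printed 5′ to 3′ on the strand of the gene, with ISRE and STAT element matches in capitals. A match on the other strand reads as its reverse complement.
Gbp2, chr3:142620594-142620623, plus strand: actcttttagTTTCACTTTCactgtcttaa
Gbp3, chr3:142559970-142560039, plus strand: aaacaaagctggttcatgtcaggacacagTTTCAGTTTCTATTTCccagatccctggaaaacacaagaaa
Gbp5, chr3:142496734-142496803, plus strand: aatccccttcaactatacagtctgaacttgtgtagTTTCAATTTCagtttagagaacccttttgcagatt
Gbp7, chr3:142530248-142530317, plus strand: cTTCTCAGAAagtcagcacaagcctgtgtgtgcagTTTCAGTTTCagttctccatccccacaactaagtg
Irgm1, chr11:48871425-48871454, minus strand: tcaaGAAATAGAAACCGAAActgattctca
Irgm2, chr11:58214878-58214947, plus strand: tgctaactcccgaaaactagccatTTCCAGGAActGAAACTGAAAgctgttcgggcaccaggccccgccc
Igtp, chr11:58199486-58199555, plus strand: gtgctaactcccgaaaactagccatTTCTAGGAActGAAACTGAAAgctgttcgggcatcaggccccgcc

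In Gbp3 and in Irgm1, 2 overlapping ISRE matches form the long run of capitals. The ISRE lay closest to the start in Irgm1, where its matches began 30 and 24 bases before it, and farthest in Gbp5, at 165 bases. It began 59 bases before the start in Gbp2, 53 in Gbp7, 64 in Irgm2 and 34 in Igtp. The windows of Igtp and Irgm2 were near copies, with 67 of 69 aligned bases identical and both elements side by side in the same order. Gbp2, the gene with the highest level, had the ISRE and no match to the STAT element in these 300 bases. All windows lie before the RefSeq start, and GENCODE M21 has exons of longer transcripts over 22 of the 30 bases printed for Gbp2, over 14 of the 70 for Gbp3 and over all 30 for Irgm1.

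The genes stand at 4 places in the genome. On GRCm38 with GENCODE M21, Gbp5, Gbp7, Gbp3 and Gbp2 follow each other on the plus strand of chromosome 3 between 142493978 and 142638008. Gbp8, Gbp9 and Gbp6 lie on the minus strand of chromosome 5 between 105014150 and 105293698. Irgm1 lies on the minus strand of chromosome 11 (48861968 to 48871683), and Igtp and Irgm2 on its plus strand between 58199556 and 58222782. Family members are alike in sequence, and how the counting treated reads that match several genes, or used strand, is not stated. Of the 75-base stretches of its transcripts, Gbp6 shared 67.3% with other genes, mainly Gm43302, so the value of Gbp6 is uncertain. The share was 11.3% for Gbp7, 8.04% for Gbp8 and 7.80% for Igtp, whose exons partly overlap those of Irgm2, and below 5% for the other members.

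To compare levels between genes, normalized counts were divided by the length of the gene's exons in kilobases. Gbp2 was by far the highest, at 19299 per kb as the mean of the 8 samples, followed by Igtp at 4539. Below these came Gbp3 at 1221, Irgm2 at 1057, Irgm1 at 883, Gbp5 at 870, Gbp9 at 540, Gbp7 at 449, Gbp8 at 330 and Gbp6 at 81.3 per kb. The ranges over the 8 samples did not overlap between Gbp2 and Igtp, between Igtp and Gbp3, or between Gbp8 and Gbp6. All other neighbours overlapped, although most kept their order inside every sample, and Irgm1 exceeded Gbp5 in 4 of the 8. Measured by the longest transcript instead of all exons, Gbp5 read 1537, Gbp3 1486 and Irgm1 1338 per kb, so the order in the middle depends on the length used.

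None of the 10 genes passed the threshold between K187R and WT. With limma on log2(normalized count + 1) and Benjamini-Hochberg adjustment over all 16982 genes, 0 of the 10 had an adjusted p under 0.05, where 0.0% of all genes did. At an unadjusted p under 0.05 the count was 1 of the 10, Gbp2, against 4.39% of all genes (1.64% with K187R lower, as Gbp2 was). edgeR called 0 of the 10 (0.0% of all genes) and DESeq2 on the recovered reads also called 0 of the 10, where it called 31 genes in all, or 0.183%. With the sample set as a factor limma called 1 gene, or 0.00589%, and DESeq2 144, or 0.848%, with 0 of the 10 in either. The groups overlapped for all 10 genes, whereas groups without overlap were found for 1.47% of genes with K187R higher and 0.989% with K187R lower. The log2 fold change, K187R minus WT, was above 0 for 6 of the 10 and below 0 for 4, against 48.4% above 0 among all genes. Their median was 0.06 and their range -0.41 to 0.49, beside a median of -0.0062 for all genes tested. With the sample set as a factor in limma 5 of the 10 were above 0 and the median was 0.041. The median of the 10 was -0.079 without WT replicate 4, -0.028 without K187R replicate 2 and 0.16 without K187R replicate 4, so its sign rests on single samples.

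**Figure D1:**
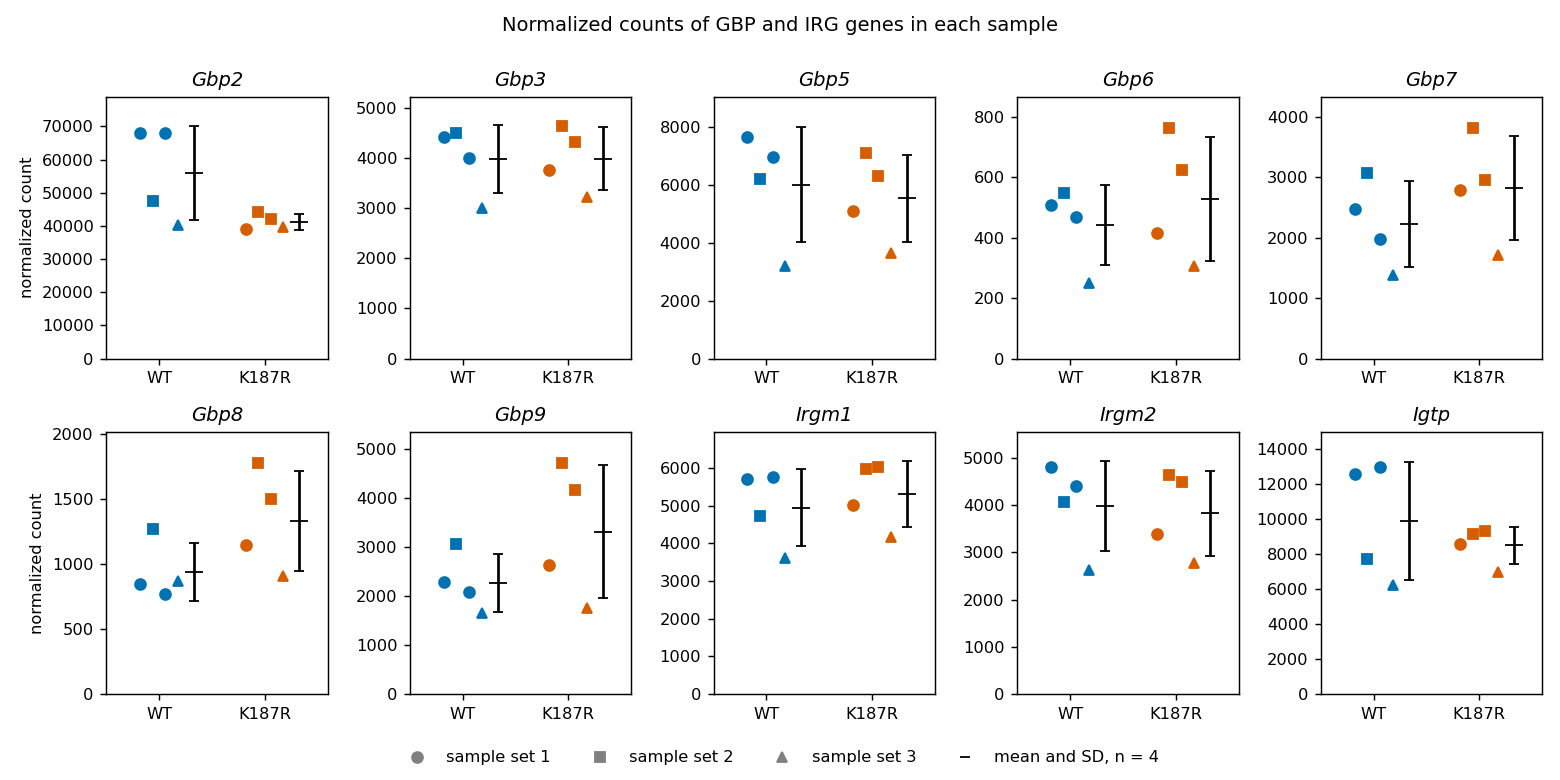
Normalized count (vertical axis, linear, from 0) of each of the 10 genes in the 4 WT and 4 K187R samples. Each symbol is a sample, its shape gives the sample set, and the bar is the mean with its SD (n = 4). The WT and K187R points overlap in every panel, Gbp2 has 2 WT samples at 67975 and 68136 with all others between 39086 and 47361, and the triangles of set 3 are low in most panels.

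Gbp2, which assembles on parasite vacuoles and on bacteria in the cytosol, had the lowest fold change. Its normalized counts were 68136, 47361, 67975 and 40247 in WT 1 to WT 4 and 39086, 44070, 42037 and 39546 in K187R 1 to K187R 4. WT 1 and WT 3, both of set 1, stood above the other 6 samples, and WT 4 lay inside the K187R range. The means were 55930 ± 14300 (SD, n = 4) in WT and 41185 ± 2320 in K187R, a log2 fold change of -0.41 (SE 0.166, 95% interval -0.78 to -0.033, limma adjusted p = 0.921). The exact two-sided permutation p was 0.0857, where 4 against 4 samples can give no less than 0.0286. Inside each set the K187R values were all below the WT values, as for 4.93% of all genes. Permuted within sets, Gbp2 had an exact p of 0.0556, the smallest the 18 arrangements allow. Set 1 gave most of the difference (-0.80 on the log2 scale, against -0.14 for set 2 and -0.025 for set 3), and there macrophage markers summed to 21002 and 21371 in the WT samples and 35799 in K187R 1. With the set as a factor in limma it was -0.35 (adjusted p = 0.522).

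The other genes of the chromosome 3 cluster had pooled fold changes between -0.09 and 0.34. Gbp5, which promotes assembly of the NLRP3 inflammasome, read 7668, 6217, 6968 and 3183 in WT and 5091, 7092, 6320 and 3629 in K187R. Its lowest value in each group came from the sample numbered 4, and the log2 fold change was -0.09 (SE 0.290, 95% interval -0.74 to 0.56). In set 1 Gbp5 was lower in K187R, as Gbp2 was, with differences of -0.52, 0.11 and 0.19 in the 3 sets. Gbp3 read 4421, 4503, 4004 and 3012 in WT and 3764, 4636, 4329 and 3222 in K187R, with means of 3985 ± 685 and 3988 ± 625. Its log2 fold change was 0.0049, with the narrowest interval of the 10 genes, -0.34 to 0.35, so that a change of 1 log2 unit lies outside it, and the differences by set were -0.16, -0.0075 and 0.10. Gbp7 read 2475, 3063, 1976 and 1379 in WT and 2787, 3814, 2949 and 1710 in K187R. K187R was above WT by 0.33, 0.13 and 0.31 in the 3 sets, though in set 2 K187R 3 was below WT 2, and the pooled log2 fold change was 0.34 (SE 0.282, limma adjusted p = 0.921).

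On chromosome 5, Gbp8 and Gbp9 had the highest fold changes of the 10. Gbp8 read 848, 1266, 771 and 871 in WT and 1149, 1779, 1500 and 906 in K187R, with only WT 2 inside the K187R range. Its log2 fold change was 0.49 (SE 0.223, 95% interval -0.016 to 0.99, limma adjusted p = 0.921, exact two-sided permutation p = 0.143). Gbp9 read 2283, 3068, 2074 and 1648 in WT and 2636, 4709, 4159 and 1757 in K187R, and K187R 4 was below 3 of the WT samples. Its log2 fold change was 0.48 (SE 0.305, 95% interval -0.20 to 1.17, limma adjusted p = 0.921, exact two-sided permutation p = 0.257). For both genes the K187R values exceeded all WT values of the same set in each of the 3 sets, as for 8.94% of all genes. The differences by set were 0.51, 0.37 and 0.06 for Gbp8 and 0.28, 0.53 and 0.09 for Gbp9. Permuted within sets, each had an exact p of 0.0556, the smallest the 18 arrangements allow, and with the set as a factor in limma the adjusted p-values were 0.443 and 0.404. Gbp6 was lower throughout, 249 to 547 in WT and 305 to 761 in K187R, with a log2 fold change of 0.22 (SE 0.326), differences by set of -0.23, 0.33 and 0.29, and the doubt about shared reads given above.

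The 3 regulators of the IRG family had pooled fold changes near 0. Irgm1, whose loss leaves mice open to mycobacteria, read 5717, 4723, 5753 and 3596 in WT and 5029, 5985, 6038 and 4178 in K187R. Its log2 fold change was 0.11 (SE 0.171, 95% interval -0.27 to 0.49). Irgm2 read 2619 to 4812 in WT and 2778 to 4635 in K187R, with a log2 fold change of -0.05 (SE 0.217, 95% interval -0.54 to 0.44). Igtp, which acts against Toxoplasma, read 12548, 7729, 12942 and 6239 in WT and 8587, 9123, 9301 and 6960 in K187R. As with Gbp2, WT 1 and WT 3 were its highest samples. Its log2 fold change was -0.16 (SE 0.228, 95% interval -0.67 to 0.36). For Irgm1, Irgm2 and Igtp alike the difference was below 0 in set 1 (-0.19, -0.44 and -0.57) and above 0 in set 2 (0.35, 0.17 and 0.25) and set 3 (0.22, 0.08 and 0.16), so the pooled values average opposite directions.

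**Figure D2:**
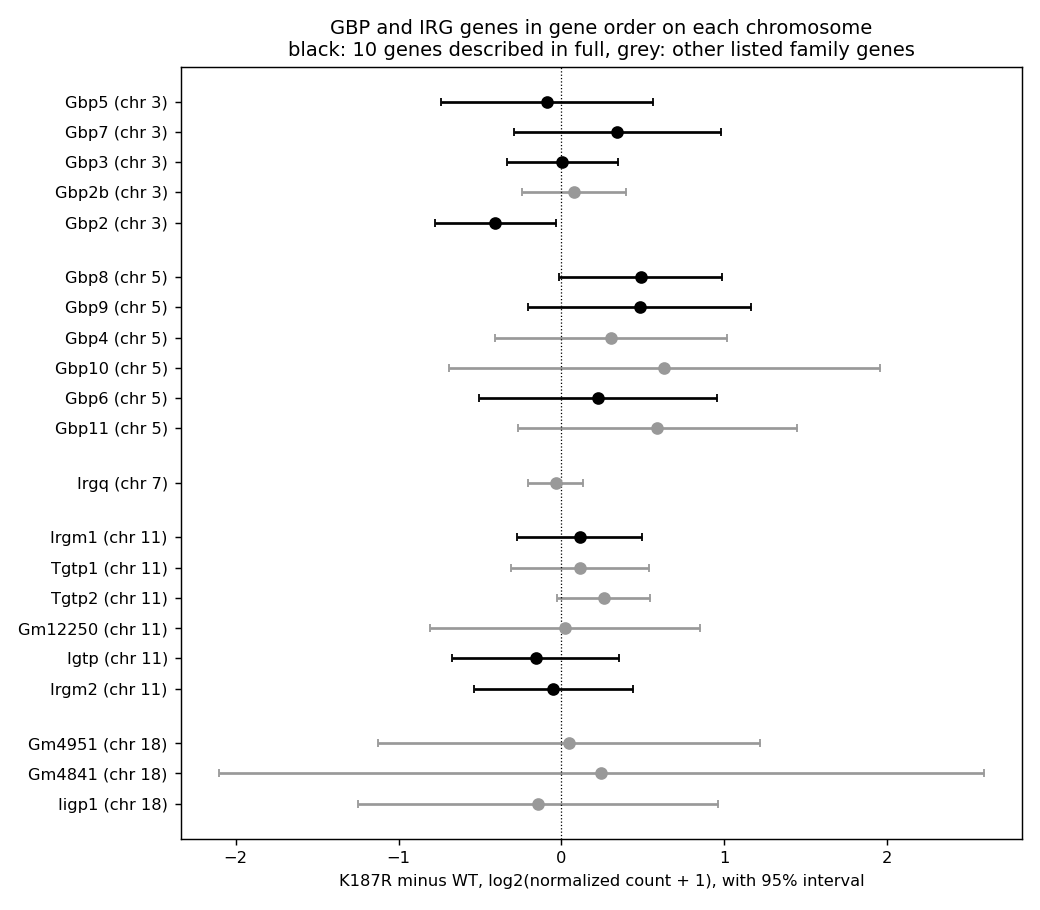
Log2 fold change, K187R minus WT, of log2(normalized count + 1), with the 95% interval from limma (horizontal axis), for the 10 genes (black) and the other family genes tested (grey), in gene order on each chromosome. The interval of Gbp2, -0.78 to -0.033, is the only black one that excludes 0 before adjustment, and Gbp8 and Gbp9 sit farthest to the right of the black points.

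Because the values differed among the 10 genes, the balance between them was followed in each sample. Gbp2 made up 68.9%, 66.1%, 69.4% and 70.6% of the summed per-kb level of the 10 genes in WT 1 to WT 4, and 62.4%, 60.3%, 60.3% and 68.0% in K187R 1 to K187R 4. The means were 68.7 ± 1.89% and 62.7 ± 3.62% (SD, n = 4 each). K187R 4 exceeded WT 2, so the groups overlapped, and within sets the difference was -6.75, -5.80 and -2.58 percentage points. The summed level of the other 9 genes was 10115 ± 2563 per kb in WT and 9823 ± 1857 in K187R. The log2 ratio of Gbp9 to Gbp2, taken from normalized counts not divided by length, averaged -4.62 ± 0.48 in WT and -3.74 ± 0.58 in K187R. It differed by 1.08 in set 1, 0.67 in set 2 and 0.12 in set 3. The ratio of Gbp5 to Gbp2 differed by 0.28, 0.24 and 0.21 in the 3 sets, and that of Igtp to Gbp2 by 0.23, 0.39 and 0.18. These ratios were chosen with the members' values known and carry no test.

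The sample sets showed in the members' values. WT 4 was the lowest of the 8 samples for 8 of the 10 genes, and both samples numbered 4 were below the gene's mean over all samples for all 10. These were the 2 lowest samples for 8 of the 10 genes, all but Gbp2 and Gbp8, against 12.2% of all genes. They were also the samples with the highest macrophage and monocyte marker sums (62063 and 65001) and the lowest B cell marker sums (388 and 457, against 1189 to 1861 in the others). The part of these in the low member values was not tested. K187R 2 was the highest sample for 5 of the 10. The coefficient of variation over the 8 samples was smallest for Gbp3 at 15.2% and Irgm1 at 17.6%, and largest for Gbp9 at 40.2% and Gbp6 at 34.3%.

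**Figure D3:**
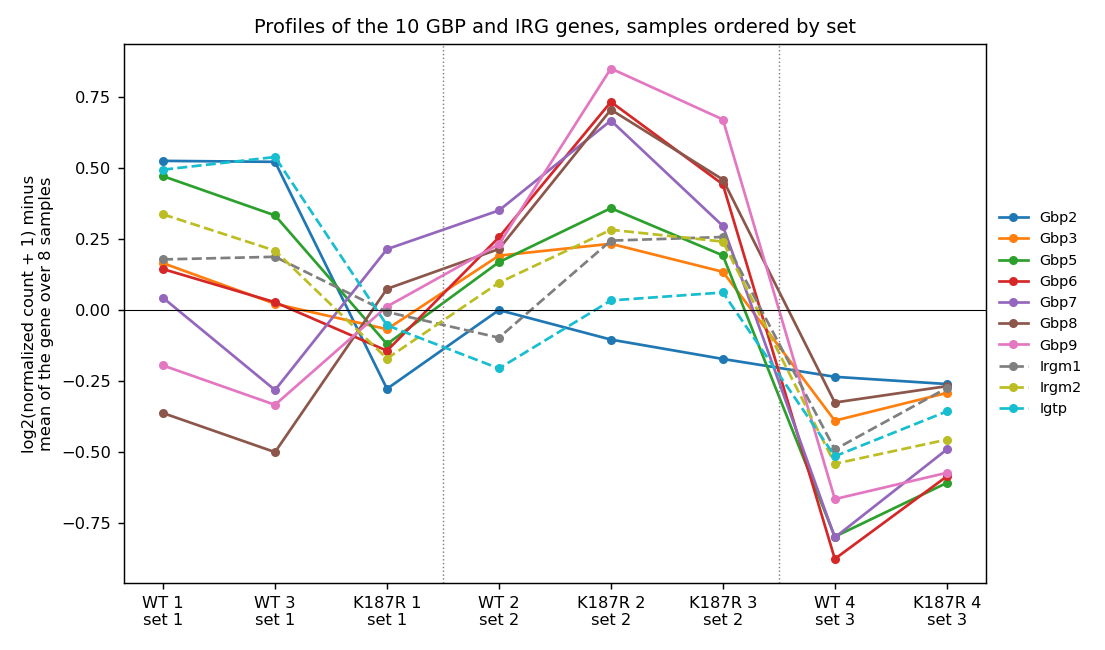
Log2(normalized count + 1) of each of the 10 genes minus its mean over the 8 samples (vertical axis), with samples ordered by set and lines joining the values of a gene (solid for GBP, dashed for IRG). All lines are below 0 in WT 4 and K187R 4, Gbp2 and Igtp are highest in WT 1 and WT 3, and Gbp6, Gbp7, Gbp8 and Gbp9 are highest in K187R 2.

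As a description, over 8 samples that share 3 sets, Pearson's r of a gene with the mean profile of the 10 genes (itself included) was 0.987 for Gbp6, 0.975 for Gbp3, 0.955 for Irgm2, 0.943 for Gbp5 and 0.931 for Irgm1. It was 0.897 for Gbp7 and 0.850 for Gbp9, and lowest for Igtp (0.661), Gbp8 (0.610) and Gbp2 (0.387). The 8 other genes most like that mean profile were Parp9 (r = 0.997), Msn (0.985), Birc3 (0.979), Rgs5 (0.979), Cntln (0.977), Ighv5-16 (0.976), Il13 (0.976) and Parp14 (0.975). Ighv5-16 was hardly above the filter, with a mean normalized count of 10.2. Parp9 and Parp14 encode ADP-ribosyltransferases of the interferon response, Birc3 an inhibitor of apoptosis, and Msn a linker of actin to the membrane. Parp9 averaged 5834 in set 1, 6458 in set 2 and 4271 in set 3. Iigp1, an IRG effector, ranked 27 of all genes (r = 0.956), Jak2 60 (0.937) and Irf1 144 (0.903). Ifng, the cytokine itself, had r = 0.374 and Ifngr1, the chain of the receptor that binds it, 0.0634. With so few samples a high r is reached by many genes, and nothing on shared control follows from it.

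The rest of the family was described in the same way. Of 12 other GBP and IRG genes 11 were tested, 0 were called by limma, edgeR or DESeq2 and 0 had an unadjusted limma p under 0.05. The log2 fold change was above 0 for 9, against 48.4% of all genes, and the median was 0.11. With the sample set as a factor in limma 7 were above 0 and the median was 0.096. Gbp4 was the most abundant of these other family genes, at 4276 ± 1054 in WT and 5581 ± 2449 in K187R, with a log2 fold change of 0.30 (SE 0.316). Gbp10 (0.63, SE 0.588) and Gbp11 (0.59, SE 0.381) were higher still in fold change but low in count, with WT means of 45.3 and 30.7, and Gbp10 shared 77.8% of its 75-base stretches with other genes. Iigp1, which attacks the Toxoplasma vacuole, read 2938 ± 1359 and 2572 ± 1245, and Tgtp1 1983 ± 551 and 2093 ± 224. Tgtp1 shared 77.2% of its 75-base stretches with other genes, mainly Tgtp2, so its value is uncertain too. Of the related large GTPases of the interferon response, Mx1 had a log2 fold change of 1.49 (SE 0.587) at means of 26.1 ± 22.6 and 69.8 ± 41.3. Mx2 had 0.17 (SE 0.323) and Gvin1 -0.05 (SE 0.140). Limma and edgeR called 0 of the 3, and 1, Mx1, had an unadjusted limma p under 0.05. DESeq2 called neither Mx1 nor Gvin1 and gave no adjusted p for Mx2.

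Upstream of the GTPases, limma and edgeR called 0 of 12 genes of interferon gamma signalling (1 at an unadjusted limma p under 0.05), 7 had a log2 fold change above 0, and the median was 0.05, which became -0.028 with the sample set as a factor. DESeq2 called 1 of the 12, Ifngr1, without the set (DESeq2 adjusted p = 4.3e-06) and with it (3.9e-07). It called 0.183% and 0.848% of all genes in these fits. The normalized counts of Ifngr1 were 21740, 20440, 21301 and 16392 in WT and 13343, 12721, 12902 and 13161 in K187R. The groups did not overlap, K187R being lower, as for 0.989% of all genes. The log2 fold change was -0.61 (SE 0.0927, limma adjusted p = 0.344, or 0.107 with the set as a factor). The kinases Jak1 (0.08) and Jak2 (-0.05) had intervals that included 0, as did Irf8 (-0.30, SE 0.234).

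Other interferon target genes were compared in the same way. Of 16 other targets of interferon gamma 15 were tested, and limma, edgeR and DESeq2 called 0 (1 at an unadjusted limma p under 0.05). The log2 fold change was above 0 for 14, against 48.4% of all genes, and the median was 0.16 (0.13 with the sample set as a factor). The largest were Ciita, the switch of MHC class II genes (1.06, SE 0.738), Serpina3g (0.82, SE 0.440) and Ido1 (0.79, SE 0.960), none of them with groups that separated. With the sample set as a factor DESeq2 called 2 of the 15, against 0.848% of all genes. The 2 were Ciita and Serpina3g (DESeq2 adjusted p = 0.00282 and 0.0156), both higher in K187R. Limma with that factor called neither (adjusted p = 0.264 for each). Ciita is also transcribed by macrophages, dendritic and B cells. The most abundant were the MHC class I genes B2m (0.16, SE 0.168), Tapbp (0.16, SE 0.0953) and Tap1 (0.08, SE 0.147). Psmb10 was the only one of the 15 whose K187R values all exceeded the WT values, as for 1.47% of all genes. This immunoproteasome subunit, named after its values were seen, read 1777 ± 127 in WT and 2195 ± 218 in K187R. Its log2 fold change was 0.30 (limma adjusted p = 0.921).

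Of 20 genes of type I interferon signalling and response 19 were tested, and limma, edgeR and DESeq2 called 0. The log2 fold change was above 0 for 17, against 48.4% of all genes, and the median was 0.30. With the sample set as a factor in limma 17 were above 0 and the median was 0.22. An unadjusted limma p under 0.05 was reached by 4 of the 19, all above 0, where 2.75% of all genes were. The antiviral oligoadenylate synthetases led, Oas2 with 0.94 (SE 0.283, 33.5 ± 6.9 in WT and 67.1 ± 22.0 in K187R), Oas3 with 0.69 (SE 0.261) and Oas1a with 0.65 (SE 0.521). Groups did not overlap, K187R being higher, for Oas2 and for Xaf1 (0.37, SE 0.126, named after its values were seen), against 1.47% of all genes. The receptor chain Ifnar1 (-0.0101), Stat2 (0.04) and Irf9 (0.12, SE 0.0824), which carry the signal, were nearer to 0.

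The proteins that load the GTPases onto vacuoles, or are drawn there by them, belong mainly to autophagy. Of these 15 genes limma, edgeR and DESeq2 called 0 (0 at an unadjusted limma p under 0.05), 7 had a log2 fold change above 0 and the median was -0.05. Their range, -0.25 for the ubiquitin ligase Traf6 to 0.16, was the narrowest of the interferon-related lists. Gabarapl1 (-0.23, SE 0.177) and Gabarapl2 (-0.17, SE 0.0933), members of the ATG8 family, were among the lowest, and Sqstm1 (0.08) and Arhgdia (0.08) among the most abundant. Of the 8 inflammasome genes that GBP proteins act on, limma, edgeR and DESeq2 called 0 (1 at an unadjusted limma p under 0.05), all 8 had a log2 fold change above 0 and the median was 0.49, which became 0.13 with the sample set as a factor. Casp1 read 645 ± 557 in WT and 957 ± 517 in K187R (0.73, SE 0.551), Il1b 1499 ± 1846 and 2830 ± 2954, and Pycard 2360 ± 363 and 2923 ± 269 (0.32, SE 0.116). Macrophages and monocytes transcribe Casp1 and Il1b strongly, and all 8 of their markers also had a log2 fold change above 0, with a median of 0.46 (0.24 with the set as a factor). Casp1 averaged 358, 1420 and 536 in sets 1 to 3 and Il1b 672, 5000 and 151, whereas the summed markers were highest in set 3. The part of macrophages and monocytes in the inflammasome values was not tested.

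**Figure D4:**
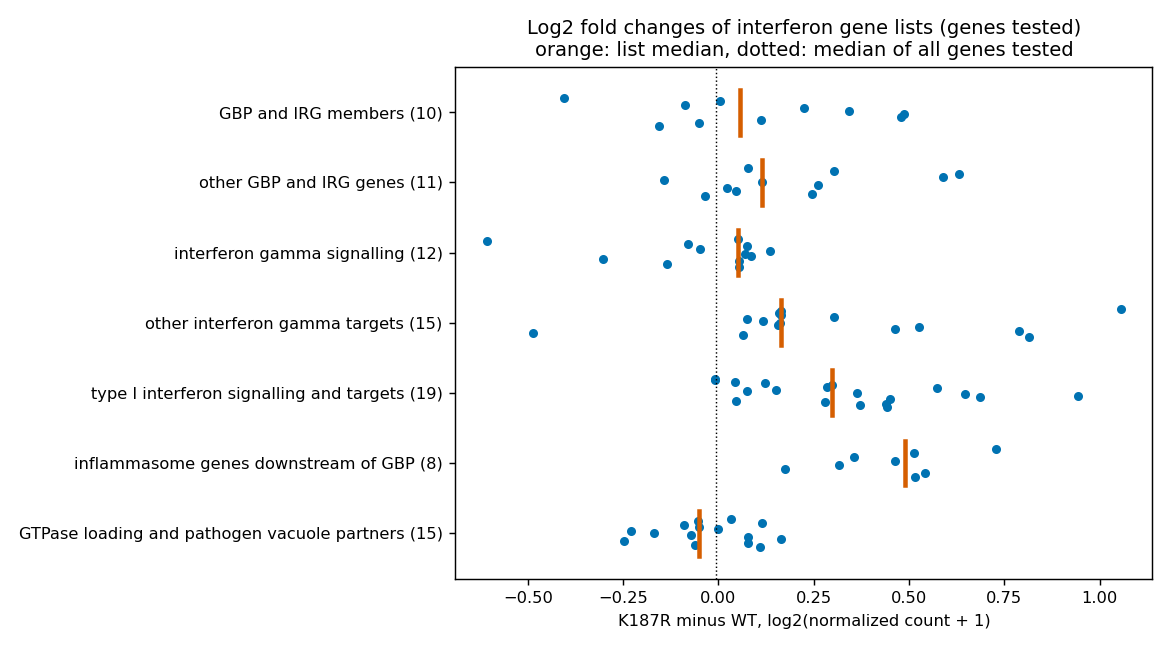
Log2 fold change, K187R minus WT (horizontal axis), of every tested gene of 7 interferon-related lists, 1 point a gene, with the list's median in orange and the median of all genes tested as a dotted line. The medians run from -0.05 for the loading and vacuole partners to 0.49 for the inflammasome genes, and the 10 GTPase genes lie on both sides of 0 with a median of 0.06.

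Lists of cell types gave the setting for these values. Medians of the log2 fold change were 0.09 for T cell markers, 0.05 for Th1 markers, 0.64 for Th17 markers, -0.0093 for CD8 T and NK cell markers, 0.68 for dendritic and 0.33 for B cell markers, with 0 genes called by limma, edgeR or DESeq2 in each when the group was the only term. An unadjusted limma p under 0.05 was reached by 4 of the 6 Th17 markers and 1 of the 8 T cell markers, against 4.39% of all genes. None of the other markers in these lists reached it. With the sample set as a factor limma called 1 Th17 marker, Ccr6 (adjusted p = 0.0157, named after its values were seen), against 0.00589% of all genes. DESeq2 with that factor called 4 of the 6 Th17 markers and 1 of the 4 dendritic cell markers tested, against 0.848% of all genes. The median of the Th1 list turned to -0.11 in limma with the set. Th1 markers, which include Ifng, summed to 2927 to 3997 in WT and 2413 to 4618 in K187R, and the lowest sum was in K187R 1 and the highest in K187R 3. Dendritic cell markers summed to 895 to 1822 in WT and 1230 to 2689 in K187R, and were highest in set 2, in which 7 of the 10 GTPase genes (all but Gbp2, Gbp5 and Igtp) had their highest mean too. The part of dendritic cells in those values was not tested.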

How the data were processed

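RNA seq was done on 8 samples, 4 WT and 4 K187R, grouped by their labels. The paper names a KAPA library kit and the labels a TruSeq-type kit. Per the paper, the authors used Cutadapt for trimming, HiSat2 with GRCm38 for alignment, featureCounts with GENCODE M15 for counting, and DESeq2. Each deposited value is a signal, the reads of a gene divided by 1 size factor per sample, and every column was used. All values (100%) came out as whole reads within 0.001 of a read. Since the deposited signal is not counts, the main test was limma (lmFit, eBayes with trend) on log2(normalized count + 1), a scale that understates changes of low genes, for 16982 genes (mean of 10 or more), with Benjamini-Hochberg adjustment at 0.05. Single values were tested by exact two-sided permutation (70 regroupings, or 18 within sets). Where 3 reads lie, the value is 2.54 to 3.56 normalized counts, and intervals cover the spread between samples.

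Alternatives were quantile and TMM scaling, no trend, edgeR, DESeq2, the replicate number as a block, the sample set as a factor, a threshold of 0.1, leaving out each sample, pseudocounts of 0.5 or 5, and a filter at 50 or none. The DESeq2 fits with the block or the set, and edgeR with the set, were added after the data were seen. DESeq2 gave no adjusted p for some tested genes of low count, such as Mx2, Gbp11, Ido1, Il18, Rsad2 and Klrb1c. Such genes are counted as not called, and they stay in the DESeq2 shares of all genes. Named genes were the 10 members, list genes that were called or among the 3 largest changes or 3 highest levels of their list, and the 8 genes most correlated with the members' mean. The members and lists were chosen with earlier results of these data known. Shared sequence was counted as identical 75-base stretches of GENCODE M21 transcripts, and promoters came from RefSeq. Windows of 70 bases were printed, or 30 where GENCODE exons cover more than 30 of the 70. Methods were tested on simulated data. Single genes of some lists are not reported here. Tools in R 4.3.3 were limma 3.58.1, DESeq2 1.42.0 and edgeR 4.0.16, and in Python 3.11.15 they were pandas 2.3.3, matplotlib 3.10.9, scipy 1.17.1 and numpy 2.4.6.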

Additional observations from a re-analysis of the deposited data

How the results depend on the processing

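The number of genes called, 0 with limma, was 31 with DESeq2, 174 with DESeq2 and the replicate block, 144 with DESeq2 and the sample set, 1 with edgeR and the sample set, 1 with the sample set as a factor in limma, and 0 to 4 when 1 sample was left out (4 without WT replicate 4). With the replicate number as a block limma called 0 genes, with 2046 at an unadjusted p under 0.05, and no other setting called a member except DESeq2 with the replicate block, which called 1, Gbp7 (0.34, adjusted p = 0.0231). Whether the replicate numbers pair the samples is not stated in the sources used here. Same-numbered deviations correlated by 0.592, 0.663, -0.0922 and 0.630. WT 1, WT 2 and WT 4 were each most like the same-numbered K187R sample, and WT 3 was most like K187R 1.

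The fold change of Gbp3 reversed to -0.035 with the sample set as a factor in limma, -0.034 in DESeq2 and -0.033 in edgeR, and to -0.024 as the mean difference within sets. Leaving out 1 sample gave -0.12 to 0.10 for Gbp3, -0.37 to 0.10 for Gbp5, -0.031 to 0.46 for Gbp6, -0.034 to 0.22 for Irgm1 and -0.24 to 0.092 for Irgm2, whose signs changed, and -0.55 to -0.30 for Gbp2, 0.13 to 0.56 for Gbp7, 0.33 to 0.66 for Gbp8, 0.28 to 0.75 for Gbp9 and -0.35 to -0.0033 for Igtp, whose signs did not. The lowest value came without WT replicate 4 for all but Gbp8 and Gbp9. The medians of the Th17 list, 0.48 to 0.85, and of the CD8 T and NK list, -0.082 to 0.51 (the latter without WT replicate 2), moved as well. By longest transcript the level per kb was 1486 for Gbp3, 1537 for Gbp5, 114 for Gbp6 and 1338 for Irgm1. The cause of these shifts was not tested. No scaling moved the median of all genes by over 0.1.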
